A study of Mus musculus with 30 samples.

Results

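Guanylate-binding proteins (GBPs) are large GTPases of the dynamin superfamily that are made in response to interferons, most of all interferon gamma. The mouse family was followed here through MC38 tumours with and without treatment by aPD1, a PD-1 checkpoint antibody. Its members were the rows of the deposited count table whose Ensembl identifier belongs to Gbp2, Gbp2b, Gbp3, Gbp4, Gbp5, Gbp6, Gbp7, Gbp8, Gbp9 or Gbp10. That gave 10 genes of the 55471 in the table, and all 10 were among the 15505 genes that passed the filter on low counts.

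As background, interferon gamma binds its receptor, whose kinases JAK1 and JAK2 start a signal to the nucleus, and transcription factors induced there, such as IRF1, take part in switching on the Gbp genes. In mouse cells the proteins gather on membranes around intracellular pathogens and on bacteria, and they promote inflammasome activation. GBP2, GBP2b (known earlier as mouse GBP1) and GBP5 carry a lipid anchor at their C-terminus. In tumours, Gbp transcripts are used as a readout of interferon signalling in cancer cells and in the immune cells among them.

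The series compared subcutaneous tumours of MC38, a mouse colon carcinoma line, grown in female C57BL/6 mice that were 6 to 8 weeks old at inoculation. There were 5 libraries in each of 6 groups: B2mKO tumours given aPD1, B2mKO tumours given IgG1, Jak1KO tumours given aPD1, Jak1KO tumours given IgG1, WT tumours given aPD1 and WT tumours given IgG1. B2mKO and Jak1KO are MC38 cells with loss-of-function mutations in B2m, which encodes the light chain of MHC class I, or in Jak1; WT cells carry neither. All mice received 3 intravenous doses of 100 µg of antibody, on days 7, 10 and 13, and RNA was made from about 50 mg of tumour on day 14. The mutations are in the injected cells, and the host cells inside each tumour come from the C57BL/6 mouse; whether a mutant line is a single clone is not given in the sources used here. Separate mice are not stated for the libraries, and p-values then reflect only how these libraries vary, which may in part be technical.

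Total counts were 17629795 to 25944701 per library. Each targeted gene had a lower mean in the tumours named for it than in WT tumours. B2m averaged 749 ± 160 CPM (counts relative to the library's depth, scaled by TMM factors) in B2mKO aPD1 tumours and 617 ± 112 CPM in B2mKO IgG1 tumours, against 4572 ± 728 CPM in WT aPD1 tumours and 3090 ± 911 CPM in WT IgG1 tumours (SD, n = 5 in every group here and below). Jak1 averaged 72.4 ± 6.99 CPM in Jak1KO aPD1 tumours and 71.5 ± 4.98 CPM in Jak1KO IgG1 tumours, against 239 ± 6.09 and 232 ± 28.7 CPM in WT aPD1 and WT IgG1 tumours. Jak1KO tumours lay between B2mKO and WT for mean B2m. Their B2m means were 1249 ± 309 CPM under aPD1 and 1205 ± 92.9 CPM under IgG1. Under aPD1 the B2m levels of B2mKO (561 to 963 CPM) and Jak1KO libraries (933 to 1708 CPM) overlapped. B2m therefore did not set the B2mKO label fully apart from Jak1KO there, while under IgG1 the groups did not overlap. The samples are whole tumours, in which fewer cells of a type and less RNA per cell cannot be told apart. Epithelial markers were almost absent: the 8 listed summed to 2.03 to 31.3 CPM over all libraries, and Cdx2 had no count in any. WT IgG1 replicate 3 and B2mKO aPD1 replicate 2 correlated less with their own groups (mean r 0.95) than the other libraries did (0.97 to 0.99), and results that change without them are given with both values.

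The 10 genes lie in 2 blocks of the genome (GRCm38). On the plus strand of chromosome 3 they run in the order Gbp5 (chr3:142493978-142522344), Gbp7 (chr3:142530342-142550149), Gbp3 (chr3:142560026-142573209), Gbp2b (chr3:142594847-142619179) and Gbp2 (chr3:142620602-142638008). On the minus strand of chromosome 5 are Gbp8 (chr5:105014150-105139540), Gbp9 (chr5:105077630-105139539), Gbp4 (chr5:105115767-105139586), Gbp10 (chr5:105215699-105239533) and Gbp6 (chr5:105270702-105293698). The annotated spans of Gbp8, Gbp9 and Gbp4 overlap, and their exons share 60 or 61 bases at the 5′ end. How far a count belongs to its own gene differs between members. Of the 100-base stretches in their transcripts, 73.5% for Gbp10 and 64.5% for Gbp6 also occur in a transcript of another gene. The share was 10% for Gbp7, 4.39% for Gbp8 and 1.65% or less for the other 6 members, and it was 0% for Gbp2 and Gbp2b. By the counter's defaults, reads that map to several places or overlap exons of several genes are not counted, so the levels of Gbp6 and Gbp10 are uncertain and rest on the part of each gene that is its own.

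RefSeq promoter windows (250 bases before to 50 bases after the annotated start, GRCm38.p6) were at hand for 5 members, the chromosome 3 block, in 6 windows since Gbp3 has 2. They were searched on both strands for the core of the interferon-stimulated response element, a site of interferon regulatory factors (ISRE, GAAANNGAAA or its reverse complement TTTCNNTTTC), and for the gamma-activated sequence of interferon gamma response genes (GAS, TTCNNNGAA). The ISRE letters were found in the windows of all 5 genes (for Gbp3 in 1 of its 2 windows), while 3.44% of all 32851 promoter windows of this length hold them. The GAS letters were found in Gbp5 and in Gbp7, at 2 places each, and 8.3% of all windows hold them. A stretch around each ISRE match is given on the plus strand, the strand of these genes, because it is the feature that the 5 genes share. Capitals mark the match, and in Gbp3 they cover 2 matches that overlap.
Gbp5 (chr3:142496739-142496808): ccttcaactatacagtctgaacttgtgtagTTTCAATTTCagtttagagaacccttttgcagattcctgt
Gbp7 (chr3:142530253-142530322): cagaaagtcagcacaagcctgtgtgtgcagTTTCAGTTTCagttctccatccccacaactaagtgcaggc
Gbp3 (chr3:142559969-142560044): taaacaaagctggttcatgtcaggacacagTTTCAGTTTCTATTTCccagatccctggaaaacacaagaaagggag
Gbp2b (chr3:142594680-142594749): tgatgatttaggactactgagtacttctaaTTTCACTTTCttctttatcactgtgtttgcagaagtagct
Gbp2 (chr3:142620574-142620643): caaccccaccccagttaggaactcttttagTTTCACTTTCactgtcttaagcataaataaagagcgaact
The match ends 155 bases before the RefSeq start site in Gbp5, 43 in Gbp7, 35 and 29 in Gbp3, 127 in Gbp2b and 49 in Gbp2. The annotated spans given above start earlier for Gbp5 and Gbp2, so the matches of these genes lie inside those spans. Gbp2 and Gbp2b hold the same 10 letters, as do Gbp7 and the first match in Gbp3. A match of letters is a description and not a binding site.

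Per length, in TPM (counts divided by merged exon length and scaled to the same total in every library), Gbp2 was the main transcript of the family. It held 58.2 ± 3.61% of the family's summed TPM in B2mKO aPD1 tumours, 54.2 ± 1.26% in B2mKO IgG1, 62.8 ± 2.10% in Jak1KO aPD1, 62.3 ± 1.23% in Jak1KO IgG1, 60.9 ± 3.20% in WT aPD1 and 61.8 ± 4.98% in WT IgG1 tumours. The whole family summed to 1717 ± 228 TPM in B2mKO aPD1 and 1904 ± 234 TPM in B2mKO IgG1 tumours. The sums were 488 ± 182 TPM in Jak1KO aPD1 and 450 ± 108 TPM in Jak1KO IgG1 tumours, and 3240 ± 698 TPM in WT aPD1 and 1378 ± 446 TPM in WT IgG1 tumours. Thus the family had its highest mean in WT aPD1 tumours and its lowest means in both Jak1KO groups. The B2mKO IgG1 libraries (1569 to 2177 TPM) and the WT IgG1 libraries (809 to 1835 TPM) overlapped. The WT aPD1 libraries (2165 to 4005 TPM) also overlapped the B2mKO IgG1 libraries. In WT and B2mKO tumours Gbp3 came after Gbp2, at 409 ± 71.6 TPM in WT aPD1 and 184 ± 65.5 TPM in WT IgG1 tumours. In Jak1KO tumours Gbp9 had the second highest mean, with 47.5 ± 3.21 TPM under aPD1 and 49.0 ± 7.01 TPM under IgG1, and Gbp3 the third, with 37.9 ± 15.0 and 36.8 ± 10.1 TPM; the libraries of these genes overlapped. Gbp10 had the lowest value of the 10 in WT aPD1 tumours, at 22.3 ± 8.94 TPM. The lengths used for TPM include the parts of Gbp6 and Gbp10 shared with other genes, where reads may go uncounted. Their places in this order are therefore uncertain. The position of Gbp2b in this order was unlike that of the others: it was the sixth of the 10 in WT aPD1 tumours, with 95.0 ± 52.8 TPM, and the last in WT IgG1 tumours, with 4.41 ± 4.66 TPM. Gbp10 was just above Gbp2b in WT IgG1 tumours, at 4.75 ± 3.02 TPM.

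**Figure D1:**
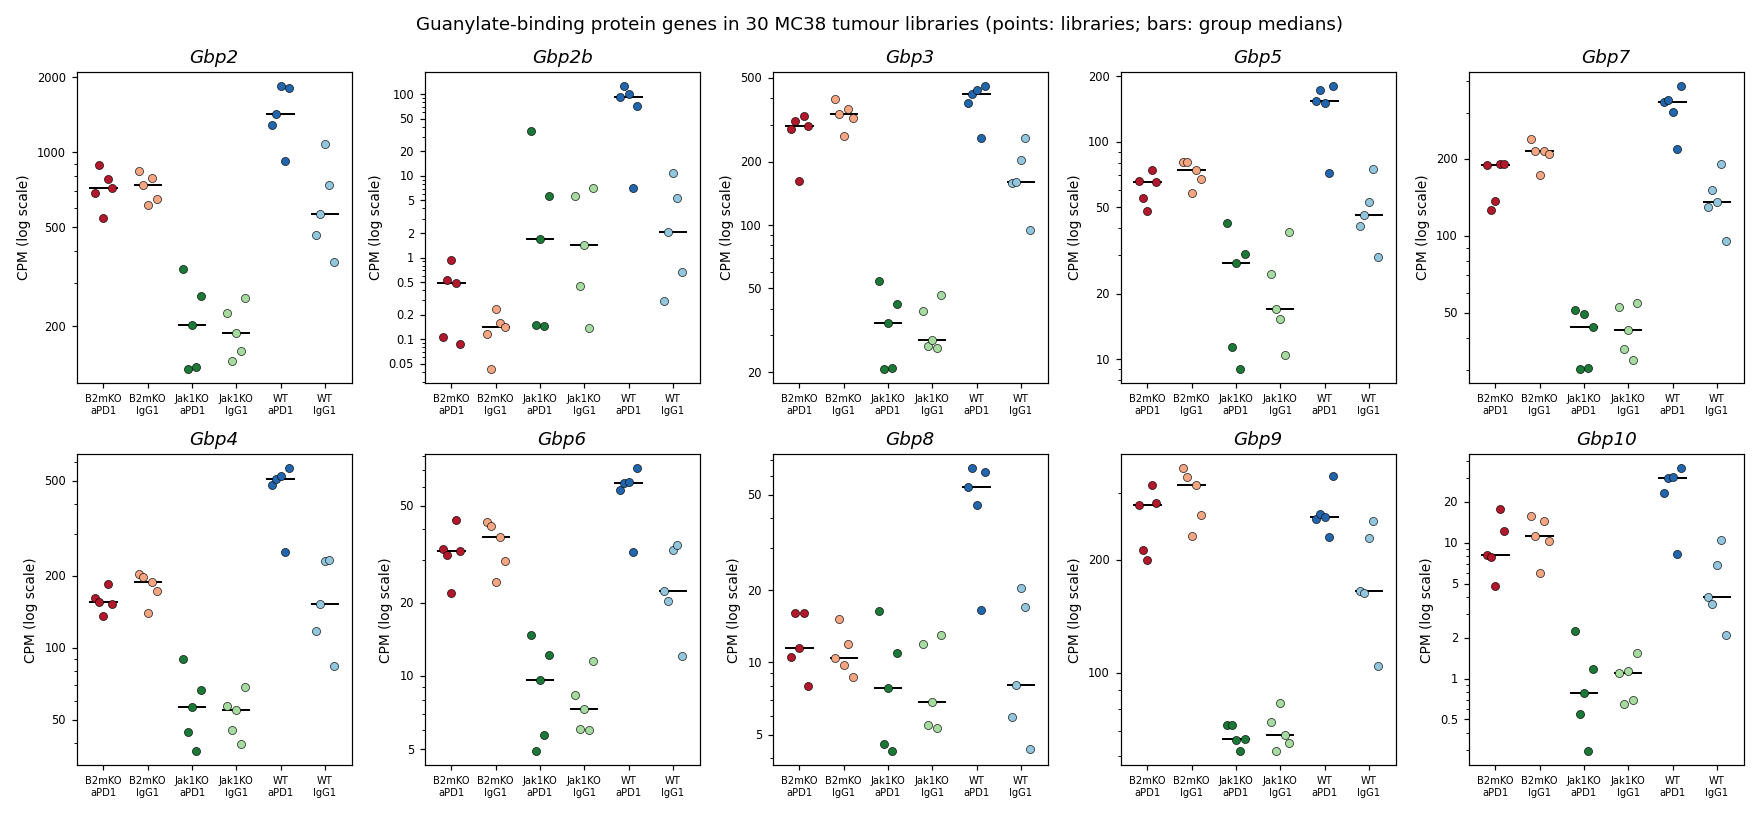
Level of each of the 10 genes in CPM (log scale, a different range in each panel) in the 30 libraries; each point is a library and each bar a group median, with the chromosome 3 genes in the upper row and the chromosome 5 genes in the lower. WT aPD1 libraries are the highest group for 9 genes, 1 of the 5 WT aPD1 libraries sits far below the other 4 in most panels, and Gbp2b alone is near 0 in both B2mKO groups.

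The first comparison asks which members respond to aPD1 in WT tumours. In edgeR's quasi-likelihood F-test, with p-values adjusted over all genes by the Benjamini-Hochberg method, 9 of the 10 rose with aPD1 and none fell, beside 3.73% of all tested genes that rose and 0.645% that fell. The median log2 fold change over the 10 was 1.37, and over all tested genes it was -0.03. Gbp9 was the member that missed the threshold (0.56 ± 0.17, edgeR adjusted p = 0.0570); it passed without the 2 libraries that stand apart (0.65, edgeR adjusted p = 0.0257) and with DESeq2 (0.57, DESeq2 adjusted p = 0.0247).

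Among the lipid-anchored members, Gbp2 had 1282, 1417, 1842, 924 and 1816 CPM in the 5 WT aPD1 libraries, against 464, 567, 1082, 737 and 362 CPM in the WT IgG1 libraries. The groups overlapped, because WT aPD1 replicate 4 lay under WT IgG1 replicate 3, and Gbp2 rose by 1.18 ± 0.26 on the log2 scale (SE; edgeR adjusted p = 0.00793). Gbp5, which promotes assembly of the NLRP3 inflammasome in mouse macrophages, had 153, 172, 151, 71.6 and 180 CPM in WT aPD1 tumours, against 40.8, 45.9, 52.8, 74.5 and 29.6 CPM in WT IgG1 tumours. Here 4 of the 5 WT aPD1 libraries lay above every WT IgG1 library, and the change was 1.58 ± 0.34 (edgeR adjusted p = 0.00640). Gbp2b had 91.6, 126, 101, 7.06 and 71.1 CPM in WT aPD1 tumours, against 0.295, 2.05, 11.0, 5.37 and 0.659 CPM in WT IgG1 tumours. Its change was 4.40 ± 0.97 (edgeR adjusted p = 0.00801), the largest of the family, and its spread was also the widest: the highest WT IgG1 library had 37.3 times the level of the lowest. The change was 5.31 without the 2 libraries that stand apart (edgeR adjusted p = 0.00567), 5.30 without WT IgG1 replicate 3 alone, and 4.07 or more whichever library was left out.

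Gbp3 and Gbp7, which carry no such anchor, stand between them on the chromosome. Gbp7, which is known to help assemble the phagocyte oxidase in mouse macrophages, had 333, 339, 303, 219 and 384 CPM in WT aPD1 tumours, against 130, 151, 136, 190 and 95.1 CPM in WT IgG1 tumours. The groups did not overlap, and Gbp7 rose by 1.17 ± 0.19 (edgeR adjusted p = 0.00117). Gbp3 had 379, 419, 438, 259 and 458 CPM in WT aPD1 tumours, against 159, 161, 203, 260 and 94.8 CPM in WT IgG1 tumours, and rose by 1.15 ± 0.25 (edgeR adjusted p = 0.00804). For Gbp3 the overlap came down to WT aPD1 replicate 4 and WT IgG1 replicate 4, which were level.

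On chromosome 5, Gbp4, a regulator of IRF7 in mouse cells, had 477, 509, 523, 251 and 563 CPM in WT aPD1 tumours, against 118, 152, 230, 233 and 84.0 CPM in WT IgG1 tumours. It was the other member whose groups did not overlap, beside 1.19% of all genes that were higher without overlap, and it rose by 1.51 ± 0.25 (edgeR adjusted p = 0.00117). Gbp8 and Gbp10, which had fewer counts, had the largest changes after Gbp2b, at 2.13 ± 0.40 and 2.25 ± 0.41 (edgeR adjusted p = 0.00292 and 0.00212). Gbp8 had 54.0, 64.5, 45.2, 16.6 and 62.0 CPM in WT aPD1 tumours, against 5.91, 8.02, 20.4, 17.0 and 4.35 CPM in WT IgG1 tumours. Gbp6 rose by 1.24 ± 0.28 (edgeR adjusted p = 0.00960). Gbp9, the member that missed the threshold, ran from 229 to 333 CPM in WT aPD1 tumours, against 104 to 254 CPM in WT IgG1 tumours. Its highest WT aPD1 library had 1.46 times the level of its lowest, the smallest such ratio in the family.

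The libraries within a group moved together across members. WT aPD1 replicate 4 was the lowest of its group for all 10 genes, and WT IgG1 replicate 5 was the lowest of its group for 9 of 10. Ifng, the gene of interferon gamma itself, had 4.91, 5.15, 5.43, 0.753 and 3.43 CPM in the WT aPD1 libraries, against 0.211, 0.166, 0.389, 0.413 and 0.132 CPM in the WT IgG1 libraries, so the same replicate 4 was the lowest WT aPD1 library for Ifng (3.91 ± 0.67, edgeR adjusted p = 0.00118). All 9 calls held when any 1 of the 10 WT libraries was left out. The estimate of spread mattered more: with only the WT groups in the fit, Gbp5 and Gbp7 passed the threshold (edgeR adjusted p = 0.0445 and 0.0403) and the other 7 had nearly the same changes with edgeR adjusted p of 0.0621 or more, while calls over all genes fell to 55, against 679 in the fit of all 30 libraries.

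Some immune cell markers were also higher in WT aPD1 tumours, and their part in these results was not tested. The summed level of 6 T cell markers was 6.08 to 37.3 CPM in WT aPD1 tumours, against 3.54 to 12.1 CPM in WT IgG1 tumours. Of these, 0 of 6 passed the threshold, with a list median of 1.66 on the log2 scale. The sum of 6 macrophage and monocyte markers was 575 to 1121 CPM in WT aPD1 tumours, against 279 to 720 CPM in WT IgG1 tumours (2 of 6 higher). For 4 dendritic cell markers it was 11.9 to 32.7 CPM in WT aPD1 tumours, against 11.4 to 15.1 CPM in WT IgG1 tumours (2 of 4 higher). Of the other immune lists, 1 of 3 leukocyte markers, 0 of 3 NK cell markers and 1 of 3 tested neutrophil markers were higher, with list medians of 0.77, 1.20 and -0.02 on the log2 scale; no B cell marker had enough counts to be tested. T cell and macrophage sums were lowest, within the WT aPD1 group, in replicate 4 as well.

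Other interferon gamma genes were set beside the family from lists. Of 9 immunity-related GTPases, relatives of the GBPs in defence against vacuolar pathogens, 8 rose in WT aPD1 tumours (list median 1.37), among them Tgtp1 (2.47 ± 0.40), Igtp (1.63 ± 0.29) and Irgm1 (1.03 ± 0.16). Of 15 other interferon gamma response genes, 9 rose (list median 1.22), with Ido1, a tryptophan-degrading enzyme, at 3.14 ± 0.37, Cd274, which encodes PD-L1, at 1.96 ± 0.29 and the peptide transporter gene Tap1 at 0.96 ± 0.16. Of 12 genes of the pathway itself, 6 rose (list median 0.57), including Irf1 at 0.71 ± 0.14 and the inhibitor Socs1 at 0.99 ± 0.19. Of 9 inflammasome genes, 1 rose, Nlrp3 at 1.31 ± 0.24, and the list median was 0.44. None of these lists had a gene that fell.

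**Figure D2:**
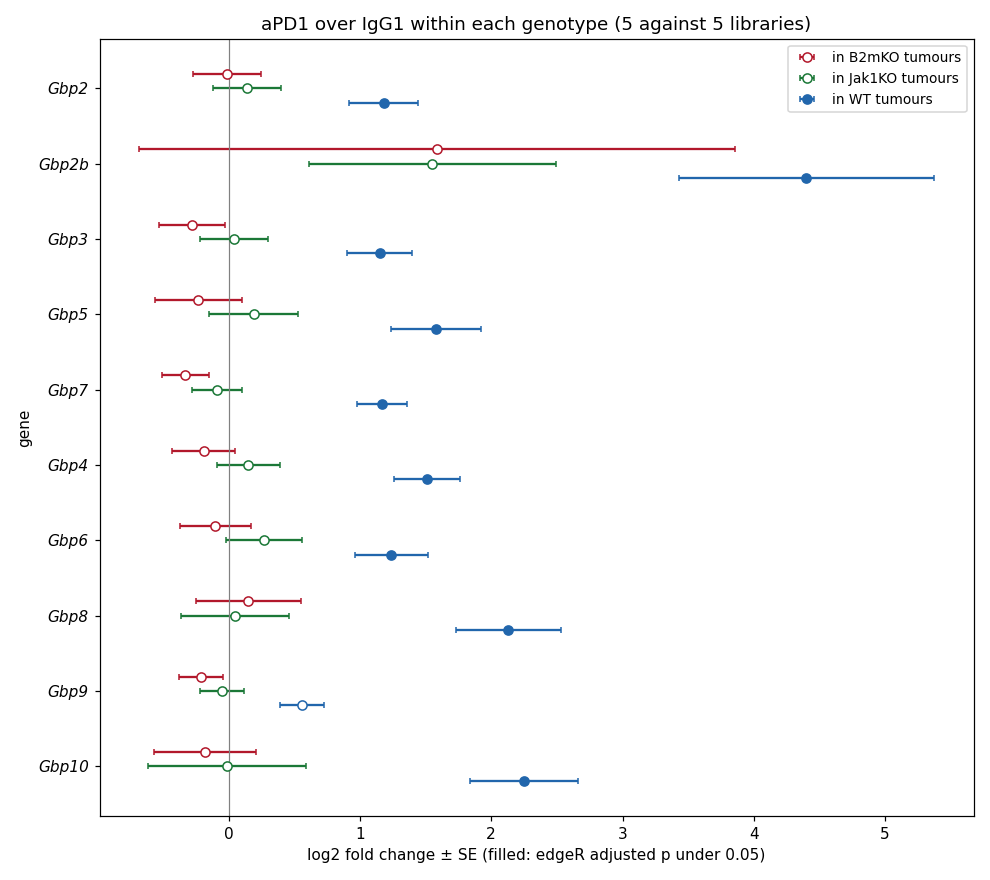
Change with aPD1 over IgG1 for each gene (log2 fold change ± SE, 5 against 5 libraries) in B2mKO, Jak1KO and WT tumours from top to bottom within each gene; filled points passed the threshold. Every filled point is in WT tumours, and the B2mKO and Jak1KO estimates lie near 0 except for Gbp2b, whose error bars are wide.

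In B2mKO and Jak1KO tumours no member passed the threshold for aPD1 against IgG1. That count stands beside 0% of all genes called by edgeR in either genotype; at an unadjusted p under 0.05 there were 511 genes in B2mKO and 172 in Jak1KO tumours, none of them a member, and DESeq2 called 0 genes in both. In B2mKO tumours the changes of the 9 members other than Gbp2b ran from -0.33 ± 0.18 (Gbp7) to 0.15 ± 0.40 (Gbp8). Gbp2b, with its few counts there, had 1.59 ± 2.27 (edgeR adjusted p = 0.826). Gbp2 had 683, 891, 546, 778 and 717 CPM in B2mKO aPD1 tumours, against 842, 738, 616, 791 and 652 CPM in B2mKO IgG1 tumours, a change of -0.01 ± 0.26. In Jak1KO tumours the same 9 genes ran from -0.09 ± 0.19 (Gbp7) to 0.27 ± 0.29 (Gbp6). Gbp2b had 1.55 ± 0.94 (edgeR adjusted p = 1.00), and -0.60 without Jak1KO aPD1 replicate 1. Gbp2 had 340, 135, 202, 137 and 265 CPM in Jak1KO aPD1 tumours, against 227, 145, 189, 160 and 259 CPM in Jak1KO IgG1 tumours.

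Whether the aPD1 effect itself differed between genotypes was tested as an interaction. In B2mKO minus WT tumours the effect was lower for all 10 members by estimate (median -1.60; 0.01 over all genes), and 2 passed the threshold, beside 0.0838% of all genes that were lower and 0.0129% that were higher: Gbp7 (-1.50 ± 0.26, edgeR adjusted p = 0.0203) and Gbp4 (-1.70 ± 0.34, edgeR adjusted p = 0.0359). Another 7 had an unadjusted p under 0.05, as did 2550 genes in all. Gbp2b, with its very low counts in B2mKO tumours, had -2.81 ± 3.01. Neither call held without the 2 libraries that stand apart (Gbp7 -1.40 and Gbp4 -1.85, edgeR adjusted p = 0.0738 for both). The count of members was 0 when WT aPD1 replicate 1, 2 or 5, WT IgG1 replicate 1 or 5, or B2mKO aPD1 replicate 3 was left out, and 6 without WT aPD1 replicate 4 or WT IgG1 replicate 4; DESeq2 also called 6. In Jak1KO minus WT tumours all 10 estimates were again below 0 (median -1.31, from -2.85 for Gbp2b to -0.60 for Gbp9). All 10 had an unadjusted p under 0.05, as did 1279 genes in all, but no gene passed after adjustment (lowest edgeR adjusted p for a member 0.194, for Gbp7 and Gbp4). DESeq2 called 2 members there, Gbp7 and Gbp4, and 51 genes in all. Without WT aPD1 replicate 4 edgeR called 3 members, and fits that left out 1 library called 0 to 128 genes in all.

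The next comparison asks how the family differs in tumours whose cancer cells lost Jak1; it uses the same WT libraries as the comparisons above. Under aPD1 all 10 members fell in Jak1KO tumours relative to WT tumours, beside 12.4% of all genes that fell and 8.40% that rose, with a median log2 fold change of -2.85 (0.02 over all genes). For 9 of the 10 the groups did not overlap, beside 10.3% of all genes. Gbp10 had the largest fall, -4.63 ± 0.49 (edgeR adjusted p = 4.24e-08): it had 2.23, 0.544, 0.789, 0.291 and 1.17 CPM in Jak1KO aPD1 tumours, against 23.2, 30.1, 30.3, 8.24 and 35.4 CPM in WT aPD1 tumours. Gbp3 fell by 3.50 ± 0.28 on the log2 scale (edgeR adjusted p = 2.57e-10), with 54.0, 20.7, 34.1, 20.9 and 42.1 CPM in Jak1KO aPD1 tumours, so that the highest Jak1KO library was still far under the lowest WT one, at 259 CPM. Gbp7 (-2.94 ± 0.20), Gbp4 (-2.98 ± 0.26) and Gbp9 (-1.98 ± 0.17) fell with edgeR adjusted p of 1.55e-11, 1.59e-09 and 1.84e-09. Gbp2b was the member whose groups overlapped, because Jak1KO aPD1 replicate 1 reached 35.6 CPM while the other 4 had 0.145 to 5.65 CPM (-3.18 ± 0.89, edgeR adjusted p = 0.0105). With the Jak1KO and WT aPD1 groups alone in the fit, Gbp2b did not pass (edgeR adjusted p = 0.0751), and without that replicate 1 its fall was larger, at -5.33.

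Under IgG1 the same comparison gave 8 members that fell and none that rose in Jak1KO tumours, beside 11.0% of all genes that fell and 7.23% that rose. The median was -1.63, against 0.00 over all genes, and the groups of 7 members did not overlap, beside 8.09% of all genes. Gbp2 had 227, 145, 189, 160 and 259 CPM in Jak1KO IgG1 tumours, against 464, 567, 1082, 737 and 362 CPM in WT IgG1 tumours, a change of -1.71 ± 0.26 (edgeR adjusted p = 2.49e-05). Gbp3 (-2.40 ± 0.27) and Gbp10 (-2.37 ± 0.50) had the largest falls, and Gbp9 fell by 1.38 ± 0.17, with 61.7 to 82.8 CPM in Jak1KO IgG1 tumours against 104 to 254 CPM in WT IgG1 tumours. The 2 members that did not pass were Gbp8 (-0.37 ± 0.41) and Gbp2b (-0.34 ± 1.00), and Gbp2b turned to 0.57 without WT IgG1 replicate 3. Gbp8 had 11.9, 5.50, 6.87, 5.31 and 13.0 CPM in Jak1KO IgG1 tumours, against 5.91, 8.02, 20.4, 17.0 and 4.35 CPM in WT IgG1 tumours, and the groups overlapped throughout.

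Immune markers in Jak1KO relative to WT tumours differed between lists, and their part in the lower Gbp levels was not tested. Under IgG1, T cell markers summed to 7.54 to 33.2 CPM in Jak1KO IgG1 tumours, against 3.54 to 12.1 CPM in WT IgG1 tumours (3 of 6 higher), and macrophage markers to 617 to 810 CPM, against 279 to 720 CPM in WT IgG1 tumours (1 of 6 higher). Leukocyte markers summed to 173 to 283 CPM in Jak1KO IgG1 tumours, against 130 to 492 CPM in WT IgG1 tumours (0 of 3 passed, list median -0.20). Dendritic cell markers had a list median of -0.14 with 0 of 4 past the threshold, and neutrophil markers one of -1.19 with 1 of 3 tested higher and none lower. Of 3 NK cell markers 1 was higher (list median 1.07), and of 5 fibroblast markers 1 was lower. Ifng averaged 0.865 ± 0.770 CPM in Jak1KO IgG1 tumours and 0.262 ± 0.130 CPM in WT IgG1 tumours (1.74 ± 0.82, edgeR adjusted p = 0.135). Under aPD1 Ifng was lower in Jak1KO tumours, at 1.24 ± 1.32 CPM against 3.93 ± 1.94 CPM in WT tumours (-1.62 ± 0.50, edgeR adjusted p = 0.0189). Of 3 markers of all leukocytes 2 were lower, with sums of 176 to 373 CPM in Jak1KO aPD1 and 238 to 663 CPM in WT aPD1 tumours. Of 4 dendritic cell markers 2 were lower and 1 was higher, and of 6 macrophage markers 1 was lower and 1 was higher. No T cell marker (list median -0.06), NK cell marker or neutrophil marker passed under aPD1. Of 4 endothelial and 5 tested epithelial markers 1 each was lower, and of 5 fibroblast markers 1 was higher.

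All 9 immunity-related GTPases fell in Jak1KO tumours under both antibodies (list median -3.04 under aPD1 and -1.99 under IgG1), with Igtp at -3.78 ± 0.31 and -2.51 ± 0.30. Of the 12 pathway genes 8 fell under aPD1 and 5 under IgG1; besides Jak1 itself, Irf9, an interferon regulatory factor gene, was at -1.95 ± 0.17 under aPD1 and -1.51 ± 0.17 under IgG1. Of the 15 other response genes 13 fell under aPD1 and 7 under IgG1, with Tap1 at -1.89 ± 0.16 and -0.94 ± 0.16. Of the 9 inflammasome genes 6 fell under aPD1 and 2 under IgG1. Those 2 were Casp1 (-2.26 ± 0.20) and Casp4 (-1.44 ± 0.18), whose products are the inflammatory caspases that act downstream of GBPs in infected mouse macrophages. None of the 4 lists had a gene that rose.

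**Figure D3:**
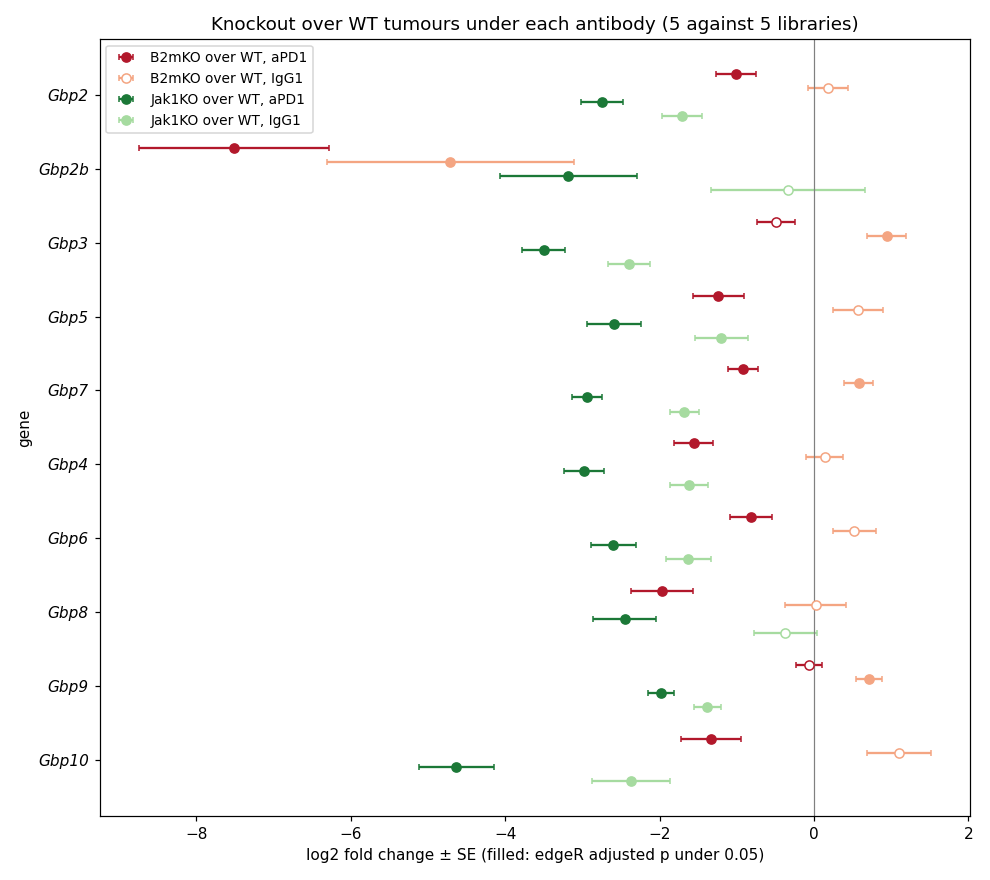
Change in B2mKO over WT and in Jak1KO over WT tumours for each gene (log2 fold change ± SE, 5 against 5 libraries), under aPD1 and under IgG1; filled points passed the threshold. Jak1KO estimates lie left of 0 for every gene under both antibodies, B2mKO estimates lie left of 0 under aPD1 and, except for Gbp2b, right of 0 under IgG1. The Gbp2b changes in B2mKO tumours were -7.51 under aPD1 and -4.71 under IgG1.

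The B2mKO tumours were set against the same WT libraries. Under aPD1, 8 members fell in B2mKO tumours relative to WT tumours and none rose, beside 10.5% of all genes that fell and 9.86% that rose (median -1.12; -0.00 over all genes). The groups of 5 members did not overlap, beside 6.66% of all genes. Gbp4 had 161, 156, 136, 184 and 153 CPM in B2mKO aPD1 tumours, against 477, 509, 523, 251 and 563 CPM in WT aPD1 tumours, a change of -1.56 ± 0.25 (edgeR adjusted p = 4.11e-05). Gbp8 changed by -1.97 ± 0.40 and Gbp2 by -1.01 ± 0.26 (edgeR adjusted p = 0.000726 and 0.00570). Gbp6 passed at an edgeR adjusted p of 0.0337 (-0.82 ± 0.27) but kept the call in 2 of 10 fits that left out a library. Gbp3 (-0.49 ± 0.25) and Gbp9 (-0.06 ± 0.17) did not pass, and Gbp9 turned to 0.02 without the 2 libraries that stand apart: it had 280, 212, 199, 316 and 282 CPM in B2mKO aPD1 tumours, against 256, 265, 260, 229 and 333 CPM in WT aPD1 tumours. Markers of other cell types also differed in this comparison. Of 5 fibroblast markers 3 were higher, with sums of 2720 to 4072 CPM in B2mKO aPD1 tumours and 1274 to 2064 CPM in WT aPD1 tumours. Of 4 endothelial markers 3 were higher, with sums of 86.6 to 184 CPM in B2mKO aPD1 tumours and 76.3 to 124 CPM in WT aPD1 tumours. Of 4 dendritic cell markers 2 were lower and 1 was higher, and 1 of 3 NK cell and 1 of 6 macrophage markers were higher. Their part in the result was not tested.

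Under IgG1, 3 members rose in B2mKO tumours and 1 fell, beside 9.40% of all genes that rose and 11.7% that fell. Gbp3 rose by 0.94 ± 0.25 (edgeR adjusted p = 0.00874), with 398, 339, 266, 357 and 323 CPM in B2mKO IgG1 tumours, against 159, 161, 203, 260 and 94.8 CPM in WT IgG1 tumours, and the groups did not overlap, beside 5.80% of all genes that were higher without overlap. Gbp9 rose by 0.71 ± 0.17 and Gbp7 by 0.58 ± 0.19 (edgeR adjusted p = 0.00349 and 0.0255), with overlap; Gbp7 kept its call in 6 of 10 fits that left out a library, and Gbp9 did not pass with the 2 groups alone in the fit (edgeR adjusted p = 0.0603). Gbp10 had 1.10 ± 0.41 and just missed the threshold (edgeR adjusted p = 0.0522; 0.0479 without the 2 libraries that stand apart). Gbp2, Gbp4 and Gbp8 did not pass, with changes of 0.18 ± 0.26, 0.14 ± 0.24 and 0.02 ± 0.40, nor did Gbp5 (0.57 ± 0.33) or Gbp6 (0.52 ± 0.28). Fibroblast and NK cell markers were also higher in B2mKO IgG1 tumours, where 3 of 5 and 3 of 3 passed. The sums were 2473 to 4837 and 2.22 to 8.25 CPM, against 1820 to 2408 and 0.527 to 2.06 CPM in WT IgG1 tumours. Of 6 macrophage, 4 dendritic cell and 5 tested epithelial markers 1 each was higher, and of 2 tested adipocyte markers 1 was lower. Their part in the result was not tested.

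Gbp2b was the member that fell in B2mKO tumours under both antibodies. It had 0.108, 0.539, 0.927, 0.486 and 0.0872 CPM in B2mKO aPD1 tumours, against 91.6, 126, 101, 7.06 and 71.1 CPM in WT aPD1 tumours, and no library of one group reached the other (-7.51 ± 1.23, edgeR adjusted p = 6.09e-05). In B2mKO IgG1 tumours it had 0.115, 0.0432, 0.234, 0.159 and 0.142 CPM, which is 1 to 5 counts per library, against 0.295, 2.05, 11.0, 5.37 and 0.659 CPM in WT IgG1 tumours, again without overlap, beside 6.35% of all genes that were lower in that way. That change of -4.71 ± 1.60 (edgeR adjusted p = 0.0355) rests on few counts: the call was kept in 4 of 10 fits that left out a library, and without the 2 libraries that stand apart it was -3.78 (edgeR adjusted p = 0.220). Ifng was at 0.183 ± 0.193 CPM in B2mKO aPD1 and 0.0708 ± 0.0598 CPM in B2mKO IgG1 tumours. That is 0 to 10 counts per library. It was lower than in WT tumours under aPD1 (-4.37 ± 0.70, edgeR adjusted p = 3.29e-05). Under IgG1 the change did not pass (-1.72 ± 1.33, edgeR adjusted p = 0.373). WT IgG1 tumours also had few counts of Ifng, 3 to 8 per library (0.262 ± 0.130 CPM).

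For the other lists, 6 of 9 immunity-related GTPases fell in B2mKO tumours under aPD1, with Tgtp1 at -3.03 ± 0.42 and Igtp at -1.63 ± 0.29, and 0 of 9 passed in either direction under IgG1. Of the 15 other response genes 12 fell under aPD1, with Ido1 at -4.62 ± 0.45 and Cd274 at -1.80 ± 0.29, and 1 rose under IgG1, the chemokine gene Cxcl10 (0.53 ± 0.19). Of the 12 pathway genes 6 fell and 2 rose under aPD1, and 1 fell and 2 rose under IgG1. Of the 9 inflammasome genes 4 fell and 1 rose under aPD1, and 1 fell under IgG1.

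Set directly against each other, the B2mKO and Jak1KO genotypes differed for 9 members under each antibody. In B2mKO relative to Jak1KO tumours 8 members were higher and 1 was lower, both under aPD1 (beside 15.1% of all genes higher and 13.6% lower) and under IgG1 (beside 14.5% higher and 14.0% lower). The groups of all 8 higher members did not overlap, beside 10.6% of all genes under aPD1 and 14.0% under IgG1. Gbp3 differed by 3.01 ± 0.27 under aPD1 and 3.33 ± 0.28 under IgG1, Gbp10 by 3.30 ± 0.49 and 3.48 ± 0.49, and Gbp9 by 1.92 ± 0.17 and 2.09 ± 0.17 (all with edgeR adjusted p of 7.37e-06 or less). Gbp8 did not pass under either antibody (0.49 ± 0.40 and 0.39 ± 0.40). Markers of other cell types differed here too, and their part in the result was not tested. Under aPD1, 3 of 3 NK cell markers (sums of 1.07 to 13.1 CPM in B2mKO and 1.36 to 3.55 CPM in Jak1KO tumours), 3 of 4 endothelial markers (86.6 to 184 CPM in B2mKO and 62.9 to 96.0 CPM in Jak1KO tumours), 3 of 5 tested epithelial markers and 1 of 5 fibroblast markers were higher, and 2 of 4 muscle markers were lower. Under IgG1, 3 of 5 fibroblast markers were higher (2473 to 4837 CPM in B2mKO and 1387 to 1749 CPM in Jak1KO tumours), as was 1 each of the dendritic cell, neutrophil and epithelial markers, and 1 of 2 tested adipocyte markers was lower.

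Gbp2b went the other way and was lower in B2mKO than in Jak1KO tumours. Under aPD1 the 5 B2mKO libraries had 0.0872 to 0.927 CPM, against 35.6, 0.148, 1.71, 0.145 and 5.65 CPM in Jak1KO libraries (-4.33 ± 1.24, edgeR adjusted p = 0.00896). Under IgG1 they had 0.0432 to 0.234 CPM, against 5.64, 0.450, 1.41, 0.138 and 7.19 CPM in Jak1KO libraries (-4.37 ± 1.63, edgeR adjusted p = 0.0444). The groups overlapped both times; the first call was lost without Jak1KO aPD1 replicate 1 (-2.18, edgeR adjusted p = 0.188) and the second held in 3 of 10 fits that left out a library (-4.68 to -3.68). Ifng differed in the same direction, lower in B2mKO than in Jak1KO tumours under aPD1 (-2.75 ± 0.81, edgeR adjusted p = 0.0104) and under IgG1 (-3.46 ± 1.04, edgeR adjusted p = 0.0112). Within Jak1KO aPD1 tumours Ifng had 3.21, 0.148, 0.920, 0.0484 and 1.87 CPM, so the libraries with the most Ifng, replicates 1 and 5, were those with the most Gbp2b, and they also had the most T cell marker counts (37.5 and 32.2 CPM, against 5.34 to 9.60 CPM in the other 3). Within Jak1KO IgG1 tumours Ifng had 1.48, 0.450, 0.423, 0.0923 and 1.88 CPM, and replicates 1 and 5 again had the most Ifng and the most Gbp2b. T cell marker counts did not follow that order there: they were 33.2, 7.54, 16.0, 19.3 and 18.4 CPM, so that replicate 4, the lowest for Ifng and Gbp2b, had more than replicate 5. High levels in these libraries were not particular to Gbp2b. Replicate 1 was the highest Jak1KO aPD1 library for 9 of the 10 members, and replicate 5 the highest Jak1KO IgG1 library for 9 of 10.

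All 9 immunity-related GTPases were higher in B2mKO than in Jak1KO tumours under both antibodies, with Irgm2 at 2.34 ± 0.26 under aPD1 and 2.80 ± 0.26 under IgG1. Casp1 was higher by 1.89 ± 0.20 and 1.84 ± 0.20, and 5 inflammasome genes were higher under aPD1 and 3 under IgG1, with none lower. Of the 15 other response genes 6 were higher and 1 lower under aPD1, and 8 higher and 3 lower under IgG1. Of the 12 pathway genes, 7 were higher under aPD1 and 6 under IgG1, and 1 was lower each time.

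Across the 30 libraries most members varied as a block. The 45 pairs of members had Pearson r of log2 CPM from 0.03 to 0.99, with a median of 0.93, and from 0.25 to 0.96 with a median of 0.83 after subtracting each group's mean. These libraries share groups and a common scaling, so the values are descriptions. The lowest r in both was between Gbp2b and Gbp9. Over the log2 CPM as they stand, Gbp2b had r of 0.51 or less with all members but Gbp8 (0.80), while Gbp4 and Gbp7 had r = 0.95. After subtracting group means Gbp2b followed the others more closely, with r of 0.88 with Gbp8, 0.82 with Gbp2 and Gbp5, 0.81 with Gbp4, 0.63 to 0.73 with Gbp3, Gbp6, Gbp7 and Gbp10, and 0.25 with Gbp9. Outside the family, the genes whose log2 CPM followed the members' mean most closely over the 30 libraries included Iigp1 (r = 0.99), Tgtp2 and Tap1 (each 0.98), and Igtp and Tgtp1 (each 0.97). After subtracting group means they were Iigp1 and Igtp (each 0.95) and Irgm2 (0.94). Iigp1, Igtp, Irgm2, Tgtp1 and Tgtp2 are immunity-related GTPase genes.

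**Figure D4:**
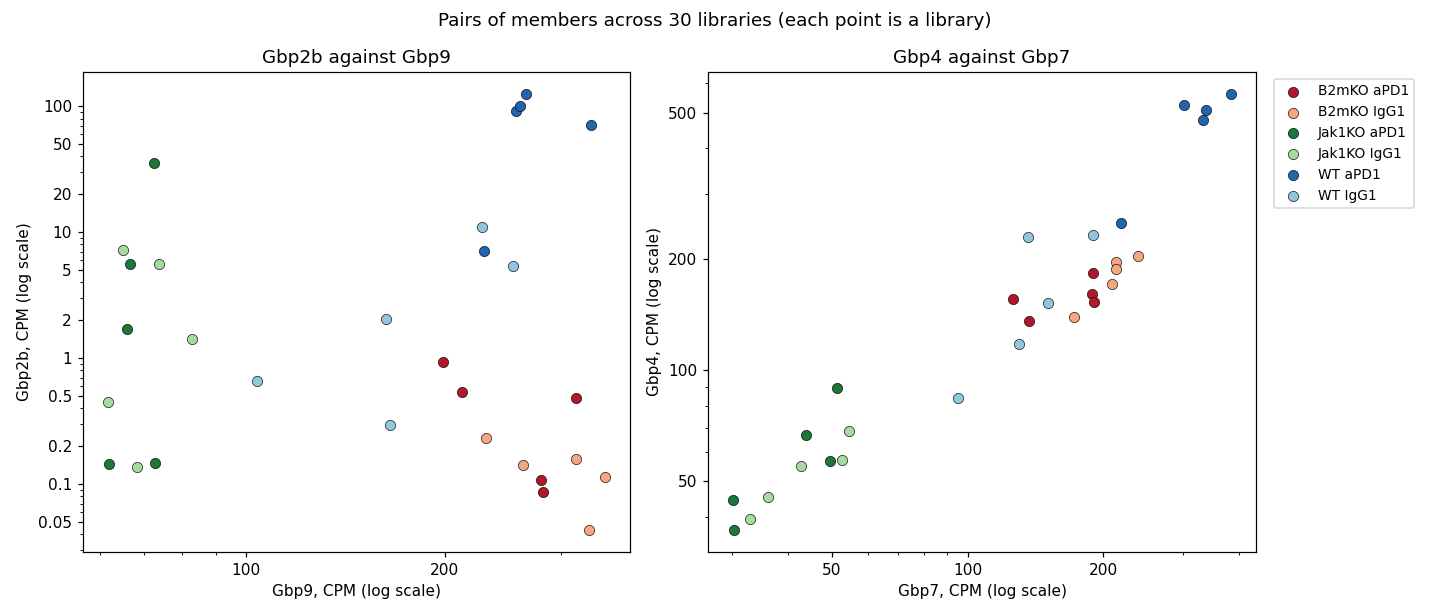
Level of Gbp2b against Gbp9 (left) and of Gbp4 against Gbp7 (right) in CPM on log scales; each point is a library, coloured by group. Gbp4 and Gbp7 follow each other through all 6 groups (r = 0.95), while Gbp2b is low in B2mKO libraries where Gbp9 is high and reaches 35.6 CPM in a Jak1KO library where Gbp9 is low (r = 0.03).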

How the data were processed

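RNA from 30 tumour libraries in 6 labelled groups was analysed. The deposited values are raw counts per Ensembl gene. Per the file headers, the authors' counter was featureCounts 2.0.0 with Ensembl's GRCm38 release 99 annotation, and the headers show no option for strand, read pairs or reads that map to several places. The submitters' processing notes list edgeR 3.24.3, Cufflinks 2.2.1, STAR 2.5.2a, FastQC 0.11.2 and the mm10 build. The per-sample tables equalled the series table; the header of WT aPD1 replicate 2 names another alignment file. Symbols were matched on the Ensembl identifier (55144 of 55471).

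Low counts were filtered by group with filterByExpr in edgeR 4.0.16, at its defaults of 10 counts and a total of 15. TMM factors were 0.939 to 1.043. All libraries entered 1 robust quasi-likelihood fit with 6 group means, with Benjamini-Hochberg adjustment over 15505 genes and a threshold of 0.05; SE is the absolute log2 fold change over the square root of F. CPM are on the TMM scale; log2 CPM has a prior count of 2. The steps were tested on simulated counts drawn for each gene independently, which do not hold the shared variation of members within groups. R was 4.3.3 and DESeq2 1.42.0, run as an alternative. All 60 pairs of replicates differed beyond counting error (chi-square over its degrees of freedom at least 6.49).

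The members and lists were chosen with earlier results of these data known. The text names all members, B2m, Jak1, Ifng, up to 3 genes with the smallest p per list and comparison, and the 6 and 3 genes most like the members' mean; not all that the rule takes are printed, and 1 gene is not reported here. Alternatives were another scaling, a looser filter, DESeq2, a replicate block, fewer groups or libraries in the fit, and, added after seeing the data, edgeR's older quasi-likelihood method.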

Additional observations from a re-analysis of the deposited data

Results flagged for a closer look

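In 4 of the 60 sets of 5 libraries checked (10 genes in 6 groups), 1 library lay far outside the other 4 by Dixon's criterion. Chance gives about 1 in 20, and the number of flags was near that rate. The members vary together, so the sets are not independent, and CPM were used without a log. For Gbp4, WT aPD1 replicate 4 had 251 CPM while the others had 477 to 563 CPM. For Gbp5 the same library had 71.6 CPM while the others had 151 to 180 CPM. For Gbp3, B2mKO aPD1 replicate 3 had 162 CPM while the others had 287 to 329 CPM. For Gbp2b, Jak1KO aPD1 replicate 1 had 35.6 CPM while the others had 0.145 to 5.65 CPM.

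The change with aPD1 differed between B2mKO and WT tumours by the interaction test for Gbp4 (-1.70 ± 0.34, edgeR adjusted p = 0.0359) and Gbp7 (-1.50 ± 0.26, edgeR adjusted p = 0.0203). Across fits that left out 1 library, Gbp4 kept the call in 6 of 20 and Gbp7 in 14 of 20, with differences of -1.86 to -1.53 and -1.63 to -1.39. The cause of these patterns was not tested.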

How the results depend on the processing

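The counts of members past the threshold changed by over 1.5 times in 4 comparisons. For aPD1 in WT tumours 9 became 2 with only the groups compared in the fit. For B2mKO against WT under IgG1, 4 became 2 with the looser filter or only the groups compared, and 2 to 5 with 1 library left out. For the aPD1 effect in B2mKO minus WT, 2 became 1 with the looser filter, 6 with DESeq2, 1 with the replicate block, 0 without the 2 libraries that stand apart, and 0 to 6 with 1 library left out. For Jak1KO minus WT, 0 became 2 with DESeq2 and 0 to 3 with 1 library left out. With the replicate block Gbp4 lost its call in B2mKO minus WT (edgeR adjusted p = 0.0941); the block moved no other count of members. In no comparison did all 5 same-numbered pairs of libraries correlate over 0.1 in their deviations (-0.15 to 0.46 for aPD1 in WT tumours), so the numbers were not taken as pairs. The nearest was aPD1 in Jak1KO tumours, at 0.09 to 0.35 with 4 of 5 over 0.1. B2mKO against WT under IgG1 also had 4 of 5 over 0.1 (-0.18 to 0.33). DESeq2's size factors and edgeR's older quasi-likelihood method, the second chosen after seeing the data, moved no count of members by over 1.5 times.

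Calls over all genes for aPD1 in WT tumours were 679, with 448 under the looser filter, 55 with only the WT groups and 230 to 1107 with 1 library left out. With only the groups compared they were 1444 for B2mKO against WT under IgG1 (3270 as reported), 1641 for Jak1KO against WT under IgG1 (2833) and 1780 for B2mKO against WT under aPD1 (3158). For B2mKO minus WT they were 15, with 6 under the looser filter, 121 with DESeq2, 1 without the 2 libraries that stand apart, 9 with only the groups compared and 0 to 158 with 1 library left out. For Jak1KO minus WT they were 0, with 51 by DESeq2 and 0 to 128 with 1 library left out.

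Some members that missed the threshold changed sign. Leaving out 1 library gave, for aPD1 in B2mKO tumours, -0.09 to 0.08 for Gbp2 and -0.23 to 0.01 for Gbp6. For aPD1 in Jak1KO tumours it gave -0.09 to 0.27 for Gbp2, -0.60 to 2.24 for Gbp2b (1.55 as reported, below 0 only without Jak1KO aPD1 replicate 1), -0.18 to 0.20 for Gbp3, -0.05 to 0.28 for Gbp4, -0.11 to 0.52 for Gbp5, -0.30 to 0.26 for Gbp8, -0.09 to 0.02 for Gbp9 and -0.53 to 0.22 for Gbp10. In B2mKO against WT it gave -0.02 to 0.30 for Gbp4 and -0.19 to 0.36 for Gbp8 under IgG1 and -0.14 to 0.03 for Gbp9 under aPD1, and in Jak1KO against WT under IgG1 -1.03 to 0.57 for Gbp2b. Gbp2 with aPD1 in B2mKO tumours was 0.00 with the replicate block, and Gbp10 with aPD1 in Jak1KO tumours was 0.00 with the looser filter and with only the groups compared. Without the 2 libraries that stand apart Gbp2b was 0.57 in Jak1KO against WT under IgG1 and Gbp9 0.02 in B2mKO against WT under aPD1. The cause was not tested. Depth limits Gbp2b most, with 1 to 5 counts per B2mKO IgG1 library.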
